A study of Mus musculus with 3 samples.

Results

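Barcodes with fibroblast RNA made up 462 of the 35515 quality-filtered barcodes in 3 single-cell libraries of mouse lung, and they were described to see how lung fibroblasts looked before and after melanoma cells reached the lung. A barcode counted as a member when it had at least 1000 detected genes, under 20% of UMIs (unique molecular identifiers, each marking 1 captured RNA molecule) from mitochondrial genes, and at least 8 UMIs in sum of Dcn, Col1a1, Col1a2 and Col3a1 with at least 3 of these 4 genes detected. Members with 0 or 1 UMI of the endothelial genes Pecam1 and Cdh5 in sum are called fibroblasts here (90 barcodes). Members with 5 or more are called mixed barcodes (325), and 47 members had 2 to 4. The members were thus chosen by the measured UMIs of these 4 genes and split by those of the other 2, which carry no finding of their own and are given as a description.

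The animals were wild-type C57BL/6 mice, a pair per treatment according to the labels, and each library pooled the cells of its mice. The methods give 3 mice each for the experiment that includes a 30 h library, so labels and methods differ, and which holds was not settled. The control mice received PBS and were taken at 6 h. The other mice received 200000 B16-F10 cells, a pigmented mouse melanoma line stained with a green tracker dye, in 100 µl through the tail vein and were taken after 6 h or 30 h. Lungs were digested with collagenase and sorted for Pecam1+ Ptprc- cells, a gate meant for endothelial cells (ECs), and per its label the 6 h library also received melanoma cells. The samples include no PBS library taken at 30 h, so the 30 h library differs from the control in both injection and time. Each group was a single library, so nothing was tested between groups. Brackets beside a level, share or ratio are exact 95% intervals that cover counting error only, brackets beside a median over a list of genes are order statistics over the genes, and levels are CPM (UMIs of a gene per 1000000 UMIs of the summed barcodes).

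Lung fibroblasts build the collagen and elastic fibre scaffold of the alveolar wall and of the cuffs around airways and vessels. Alveolar fibroblasts lie next to capillaries and alveolar epithelium and are known by Inmt, Npnt, Tcf21 and Pdgfra, whereas adventitial fibroblasts of the cuffs are rich in Dcn, Pi16 and Col14a1. Pericytes wrap the capillaries, share part of the collagen program, and are known by Pdgfrb, Notch3, Cox4i2 and Higd1b. Fibroblasts also answer inflammatory cytokines such as IL-1, TNF and the IL-6 family, through NF-kB and JAK-STAT signaling, with chemokines, acute phase proteins and protease inhibitors.

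The members were rare in every library. They were 196 of 12870 barcodes in the control library (1.52% [1.32, 1.75]), 133 of 12081 at 6 h (1.10% [0.923, 1.30]) and 133 of 10564 at 30 h (1.26% [1.06, 1.49]). The fibroblasts numbered 38, 28 and 24, or 0.295% [0.209, 0.405], 0.232% [0.154, 0.335] and 0.227% [0.146, 0.338], and these intervals overlap. The mixed barcodes numbered 139, 90 and 96, or 1.08% [0.909, 1.27], 0.745% [0.599, 0.915] and 0.909% [0.737, 1.11] in the same order. The gate for Pecam1 and against Ptprc sets all of these shares, so they say nothing of how common fibroblasts were in the lungs. The fibroblasts held 0, 0 and 1 UMI of Ptprc.

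The levels of the rule genes, which chose the members, are a description only. Dcn, a small proteoglycan that binds collagen fibrils (chromosome 10, 97479609 to 97518143 in GRCm38, as for all positions given), was at 587 CPM in the control fibroblasts, 764 CPM at 6 h and 2122 CPM at 30 h. It came from few barcodes: 10 of 38, 8 of 28 and 6 of 24 held any Dcn UMI. Col1a1 (chromosome 11, 94936224 to 94953042), which encodes the main chain of type I collagen, was at 611, 995 and 1236 CPM. Its partner chain Col1a2 (chromosome 6, 4504814 to 4541544) was at 990, 1255 and 1702 CPM, and Col3a1, the type III collagen chain (chromosome 1, 45311538 to 45349706), at 1531, 1646 and 2117 CPM. Without the top barcode of each library the 6 h log2 ratios to control of Col1a2 and Col3a1 were -0.18 and -0.24, below the control. Col1a2 and Col3a1 had a UMI in every fibroblast, while Col1a1 lacked one in 1 of the 38 control fibroblasts. Barcodes just inside the limit (8 or 9 UMIs) numbered 23, 20 and 13, and those just outside (6 or 7 UMIs, at least 3 genes detected) 13, 13 and 10. Inmt, which the rule did not use, was at 318, 448 and 866 CPM just inside and 433, 395 and 1053 CPM just outside, so the limit does not mark a step in this alveolar fibroblast gene. A further 17, 10 and 17 barcodes had 8 or more UMIs but from only 1 or 2 of the genes, and were not members.

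**Figure D1:**
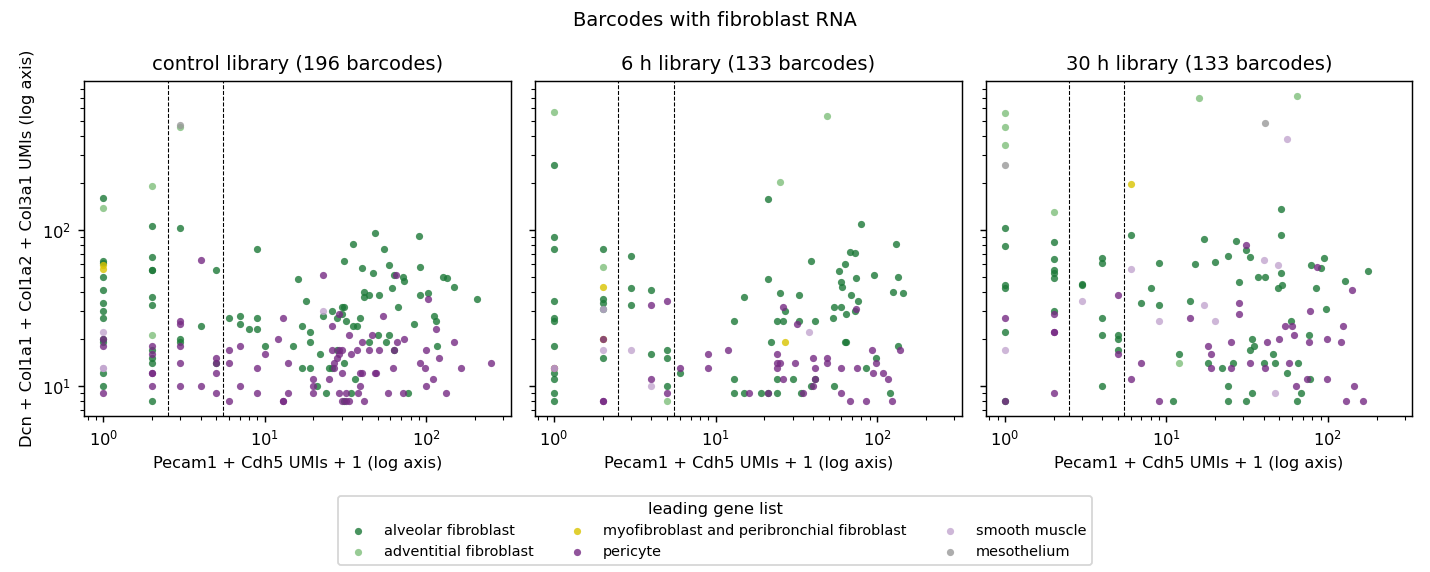
Each point is 1 of the 462 members: the x axis gives Pecam1 plus Cdh5 UMIs (1 added, log scale), the y axis the UMIs of the 4 rule genes (log scale), the color the marker list with the most UMIs, and the dashed lines the bounds of the fibroblast and mixed classes. Members led by alveolar and by pericyte markers lie on both sides of the split, and the 5 members with the most rule-gene UMIs were all led by adventitial markers.

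The name fibroblast held for only part of the members. Each member was assigned to the marker list with the most UMIs among alveolar fibroblast, adventitial fibroblast, myofibroblast and peribronchial fibroblast, pericyte, smooth muscle and mesothelium (14, 13, 11, 13, 8 and 7 genes). Left out of these lists were the rule genes, genes on more than 1 of the lists, such as Acta2, and genes above 50 CPM in endothelial barcodes. Alveolar markers led in 246 of 462 members (53.2%) and pericyte markers in 170 (36.8%). The remaining members were led by smooth muscle (20), adventitial fibroblast (16), myofibroblast and peribronchial fibroblast (7) or mesothelium (3) markers. Among the 90 fibroblasts, alveolar markers led in 50 (55.6%), pericyte markers in 18 (20%), adventitial markers in 9, smooth muscle markers in 7, myofibroblast markers in 5 and mesothelial markers in 1. In 25 of the 462 members the leading list had under 1.5 times the UMIs of the next.

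Most leads went with their own defining genes, which, since the lists made the assignment, is a description and no test. Fibroblasts led by alveolar markers, taken here without the 2 barcodes that carried alveolar epithelium (48 barcodes over the 3 libraries), had 4991 CPM of Inmt, a methyltransferase, against 493 CPM in the other fibroblasts. In the same barcodes Mfap4, a microfibril-associated protein, was at 1535 CPM against 237 CPM, and Npnt, a basement membrane ligand of integrin alpha-8, at 2279 CPM against 337 CPM. Notch3 and Pi16 were at 0 UMIs there, and Dcn was at only 191 CPM. Genes outside the lists that stood highest against the other fibroblasts were Col23a1, a membrane-bound collagen (265 CPM against 2.19 CPM), the axon guidance and vascular ligand Slit2 (1395 CPM) and the alpha-1A adrenergic receptor Adra1a (360 CPM). Adventitial-led fibroblasts (9 barcodes) had 9707 CPM of Dcn, 1884 CPM of Pi16 and 4311 CPM of Clec3b, with Pi16 at 0 in all other fibroblasts. Pericyte-led fibroblasts (18 barcodes) had no Dcn UMI and 48.7 CPM of Inmt, with 1133 CPM of the Notch receptor gene Notch3, 1071 CPM of the PDGF receptor gene Pdgfrb, 4018 CPM of Gucy1a1, a subunit of the nitric oxide receptor, and 3274 CPM of Spp1, which encodes osteopontin. The Spp1 level, from 471 UMIs, rested on few barcodes. Without the top barcode of each library, 106, 2 and 0 Spp1 UMIs were left over all control, 6 h and 30 h fibroblasts. Myofibroblast-led fibroblasts (5 barcodes) had 3295 CPM of the hedgehog-binding Hhip and 1745 CPM of Aspn, a small matrix proteoglycan, but no UMI of Pdgfra, which is on the list that assigned them and is also known from alveolar fibroblasts. Smooth-muscle-led fibroblasts (7 barcodes) had 15871 CPM of Acta2 and 4149 CPM of Myh11, both contractile genes, and also no Dcn UMI. Of these genes Myh11 helped to assign them and Acta2 did not. Thus 25 of the 90 barcodes that the rule calls fibroblasts were led by markers of mural cells (pericyte and smooth muscle lists).

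**Figure D2:**
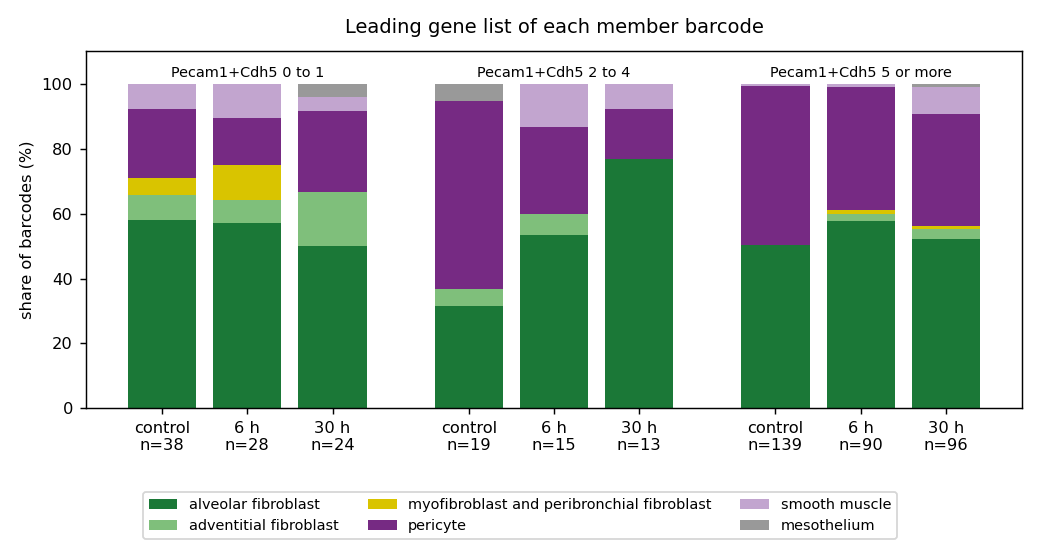
Stacked bars give the percent of members whose UMIs were led by each of the 6 marker lists, by class (Pecam1 plus Cdh5 of 0 or 1, of 2 to 4, and of 5 or more) and library. Alveolar markers led in the largest part of each fibroblast and mixed bar, and pericyte markers led more mixed barcodes (135 of 325) than fibroblasts (18 of 90).

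Any difference in makeup between the libraries rested on small counts. In the fibroblasts, alveolar markers led in 22 of 38 control barcodes, 16 of 28 at 6 h and 12 of 24 at 30 h, pericyte markers in 8, 4 and 6, and adventitial markers in 3, 2 and 4. By another reading, alveolar UMIs outnumbered adventitial UMIs in 31 of 38 control fibroblasts (81.6% [65.7, 92.3]), 21 of 28 at 6 h (75.0% [55.1, 89.3]) and 19 of 24 at 30 h (79.2% [57.8, 92.9]), and these intervals overlap widely. The 3 adventitial-led fibroblasts of the control library held 4069, 3969 and 25410 UMIs, and the 4 at 30 h held 17729, 17804, 3196 and 14581 UMIs, so the libraries overlapped. In sums over barcodes, fewer cells of a type and less RNA per cell cannot be told apart.

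The libraries held 140601123 UMIs (control), 132566934 (6 h) and 124085451 (30 h). The fibroblasts had median totals of 10337, 9270.5 and 15428.5 UMIs, and mixed barcodes of 24695, 25664.5 and 22409 UMIs, against 8574, 8698 and 9328.5 UMIs in endothelial barcodes (5 or more UMIs of Pecam1 plus Cdh5 and at most 1 of the rule genes). Scrublet, a caller of doublets (droplets with more than 1 cell), scored the barcodes, and a preset number with the highest scores was marked in each library. Those marked included 0, 1 and 0 fibroblasts, and 38, 28 and 4 mixed barcodes. No doublet was removed in the main values. No barcode sequence was a member in more than 1 library, while 2 control members and 1 member of the 30 h library had a sequence that also passed the quality limits, as a non-member, in the 6 h library. A single fibroblast barcode at 6 h and another at 30 h carried at least 100 UMIs of alveolar epithelium genes and held 98.9% and 99.4% of all such UMIs among the fibroblasts of their libraries. Pan-endothelial genes other than the 2 used for the split were at a median of 3.43%, 3.28% and 2.61% of their level in endothelial barcodes. Leukocyte markers summed to 16.7, 3282 and 1742 CPM over all fibroblasts, where 10, 9 and 10 of their 12 genes were at 0. Lyz2, a gene of this list that alveolar type II cells also express, had only 16 UMIs over the 3 libraries without the epithelium-carrying members. In the alveolar-led fibroblasts the list summed to 14.7, 19.5 and 11.6 CPM, with 11, 10 and 11 of the 12 genes at 0. Melanoma markers summed to 209, 127 and 81.1 CPM in the alveolar-led ones. Hemoglobin and other red cell genes summed to 636, 360 and 46.4 CPM there and to 3399, 1975 and 803 CPM in endothelial barcodes.

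The comparison of all fibroblasts at 6 h with the control asked which genes differed soon after tumor cells arrived, and its highest ratios were mostly those of alveolar epithelium genes, while pericyte genes were lower. Of 3772 genes with at least 60 UMIs over the 3 libraries, 158 (4.19%) were at least 2-fold higher and 198 (5.25%) at least 2-fold lower at 6 h. The 10 largest ratios above 0 were those of Lyz2 (log2 ratio 7.84), Slc34a2 (7.81), Sftpc (7.14), Sftpb (7.03), Sftpa1 (6.65), Sfta3-ps (6.27), Wfdc2 (6.22), Saa3 (at least 6.08), Sftpd (at least 5.89) and Cd74 (5.79). Apart from the acute phase gene Saa3, these are genes of surfactant-making alveolar type II cells or of antigen presentation, and for Sftpc 99.6% of the UMIs at 6 h came from the 1 epithelium-carrying barcode. Without the epithelium-carrying members the log2 ratio of Sftpc was -0.49. Saa3 had 0 UMIs in the control, 163 at 6 h in 3 of 28 barcodes, and 10 at 30 h. The 10 largest ratios below 0 were those of Retreg1 (-3.06), A230057D06Rik (-2.71), Clstn2 (-2.58), Bcas3os1 (-2.55), Pitpnc1 (-2.35), Aff2 (-2.34), Fam162b (-2.31), Pcdh18 (-2.27), Ltbp2 (-2.24) and Wwox (-2.24). That of Clstn2 turned to 1.12 in fibroblasts with no Pecam1 or Cdh5 UMI. The pericyte list had a median log2 ratio of -1.29 [-1.78, -0.62], with 5 of its 8 tested genes at least 2-fold lower and none higher, against a median of -0.06 over all genes tested. Pericyte markers led 8 fibroblasts in the control library and 4 at 6 h, and the part of this in the lower genes was not tested beyond the alveolar-led comparison that follows.

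At 6 h the fibroblasts led by alveolar markers (22 control, 15 at 6 h and 11 at 30 h, a choice made after the values of all fibroblasts had been seen) had more RNA of 3 of 10 NF-kB target genes and of 4 of 10 chaperone genes, by the limit of 2-fold. Of 2158 genes tested in them, 86 (3.99%) were at least 2-fold higher and 114 (5.28%) at least 2-fold lower. The NF-kB target list had a median log2 ratio of 0.79 [0.48, 1.59], with 10 of its 10 tested genes above 0 and 3 at least 2-fold higher, against a median of -0.03 over all genes tested. The heat shock and chaperone list had a median of 0.85 [0.19, 1.34], with 4 of 10 at least 2-fold higher and none lower. The alveolar fibroblast list itself had a median of -0.28 [-0.69, -0.03], with 1 of 12 genes (Ces1d) at least 2-fold lower. These medians describe 1 library against another, and the brackets are order statistics over genes, which are not replicates.

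**Figure D3:**
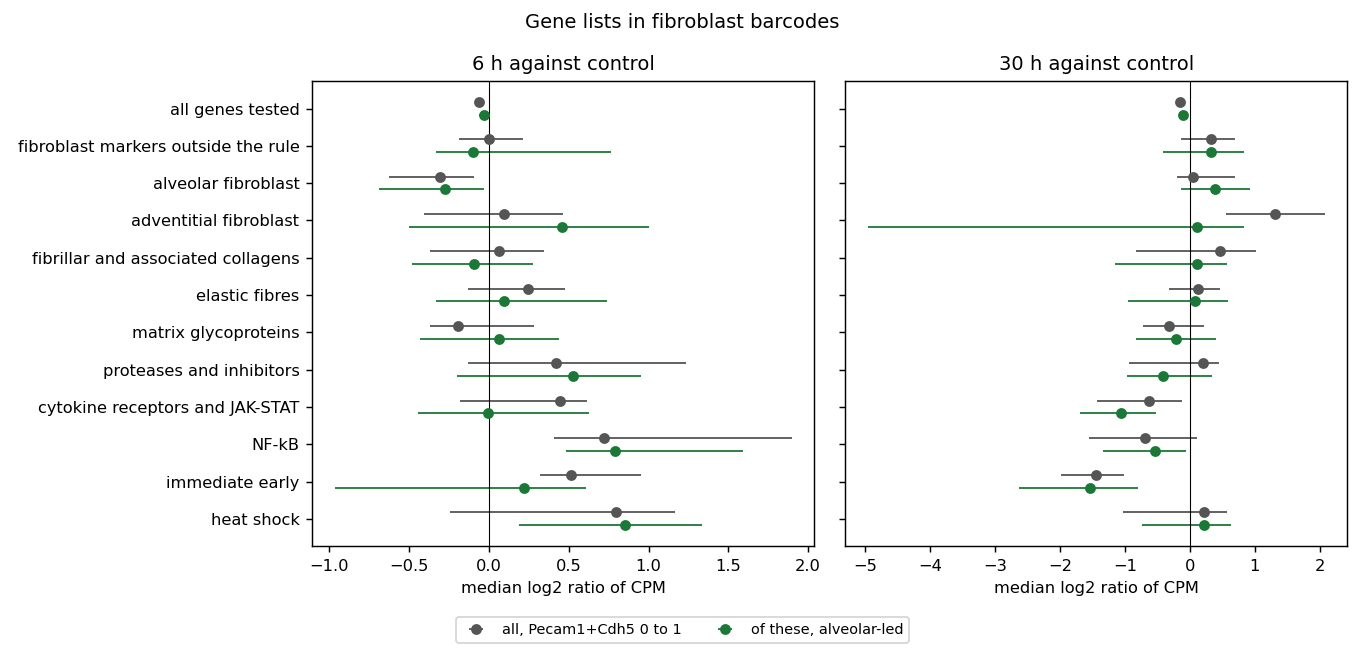
For 12 gene lists, points give the median log2 ratio of 6 h (left) and 30 h (right) to control and lines its interval over the genes, in all fibroblasts (grey) and in those led by alveolar markers (green). NF-kB targets and heat shock genes lie above 0 at 6 h in both sets, and immediate early and JAK-STAT genes lie below 0 at 30 h in both.

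Serpina3n (chromosome 12, 104406729 to 104414329), which encodes a secreted serine protease inhibitor of the acute phase response, was at 514 CPM [433, 607] in the control alveolar-led fibroblasts, 876 CPM [753, 1014] at 6 h and 649 CPM [534, 781] at 30 h. By barcode its control level had a median of 362 CPM and a highest value of 1632 CPM, with a UMI in 19 of 22 barcodes. At 6 h the median was 799 CPM and the highest value 1860 CPM (14 of 15 barcodes), and at 30 h the median was 173 CPM (8 of 11 barcodes). The barcodes of the libraries overlapped, and the 6 h median lay above both others. The log2 ratio to control was 0.77 [0.44, 1.10] at 6 h and 0.34 [-0.04, 0.70] at 30 h, and 1 barcode gave 57.1% of the 30 h UMIs, without which (and without the top control barcode) the 30 h ratio was -0.40. The mixed barcodes led by alveolar markers (65, 45 and 46 barcodes), which are separate droplets of the same libraries, had 187, 604 and 259 CPM of Serpina3n, a log2 ratio of 1.69 [1.51, 1.87] at 6 h. In endothelial barcodes Serpina3n was at 5.34, 6.38 and 3.67 CPM, a ratio of 0.26 at 6 h.

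The promoter of Serpina3n (RefSeq, GRCm38.p6, chr12:104406458-104406757, plus strand, from 250 bases before to 50 after the start) is shown because the gene was higher at 6 h beside the NF-kB targets. The capitals mark the only match in it to the NF-kB motif (GGG, 2 bases of any kind, then TTTCC), which begins 171 bases before the start (position -171) and was found in 1.63% of 32851 promoters when both strands were searched. The match is a description of letters and not a shown binding site.
Serpina3n promoter: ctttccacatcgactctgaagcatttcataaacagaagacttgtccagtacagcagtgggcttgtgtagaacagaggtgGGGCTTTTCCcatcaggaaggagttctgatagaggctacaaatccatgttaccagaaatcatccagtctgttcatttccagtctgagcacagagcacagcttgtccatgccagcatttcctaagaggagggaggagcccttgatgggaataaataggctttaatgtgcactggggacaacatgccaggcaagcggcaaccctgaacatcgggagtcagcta
A match to the STAT motif TTCNNNGAA, found in 8.30% of promoters, lies at -191 in the promoter of Cxcl14. That promoter also holds 2 matches to the metal response element core given below for Mt1 and Mt2. The promoters of Saa3 and Tnc, searched in the same way, hold no NF-kB or STAT match.

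Ccn5 (chromosome 2, 163820861 to 163833146), a matricellular protein that lacks the C-terminal domain of its relatives, was higher at both times. In alveolar-led fibroblasts it was at 91.9 CPM [59.5, 136] in the control, 423 CPM [339, 522] at 6 h and 290 CPM [215, 382] at 30 h. It had a UMI in 10 of 22 control barcodes (median 0, highest 375 CPM), in 10 of 15 at 6 h (median 286, highest 1688 CPM) and in 9 of 11 at 30 h (median 230, highest 610 CPM). Both later libraries lay above the control in their medians, although barcodes without a UMI occurred in all 3. Its log2 ratio was 2.20 [1.55, 2.91] at 6 h and 1.66 [0.94, 2.41] at 30 h, and leaving out the barcode with the most UMIs in each library gave 2.34 and 1.75. In alveolar-led mixed barcodes Ccn5 was at 34.9, 184 and 135 CPM, with ratios of 2.40 [2.00, 2.81] and 1.96 [1.53, 2.40]. In endothelial barcodes it was at 0.414, 0.842 and 0.484 CPM. After each barcode was thinned to 4000 UMIs (1, 0 and 1 shallower alveolar-led fibroblasts left out), Ccn5 had a UMI in 23.8%, 53.3% and 60% of alveolar-led fibroblasts and in 0.1%, 0% and 0.4% of endothelial barcodes. The unthinned shares in the same fibroblasts were 47.6%, 66.7% and 90%.

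Other secreted and signaling genes were higher at 6 h but not past 2-fold higher at 30 h. Cxcl14 (chromosome 13, 56288643 to 56296551), a chemokine of resting fibroblasts and epithelia, was at 661, 1460 and 771 CPM in alveolar-led fibroblasts. Its 6 h log2 ratio was 1.14 [0.87, 1.42], but 1 barcode gave 49.0% of the 6 h UMIs and without the top barcode of each library the ratio was 0.59 [0.25, 0.93]. Mixed barcodes led by alveolar markers had Cxcl14 at 282, 847 and 282 CPM, a ratio of 1.59 [1.44, 1.74] and of 1.26 without the top barcodes. Thinned to 4000 UMIs, though, Cxcl14 had a UMI in 60%, 48.9% and 54.3% of these mixed barcodes, so their share was not higher at 6 h. In alveolar-led fibroblasts thinned in the same way the share was 71.4%, 86.7% and 70%, from 15 of 21, 13 of 15 and 7 of 10 barcodes. Sod2, the mitochondrial superoxide dismutase and an NF-kB target, was at 62.5, 263 and 81.1 CPM (2.07 [1.26, 2.95]), in 12 of 22, 12 of 15 and 7 of 11 barcodes. Its level in endothelial barcodes was 91.3, 99.3 and 85.8 CPM, a ratio of 0.12. Tnfaip2, another TNF-induced gene, was at 103, 214 and 40.6 CPM (1.06 [0.34, 1.80]) and at 39.2, 158 and 26.6 CPM in alveolar-led mixed barcodes (2.02 [1.63, 2.42]). Icam1, the leukocyte adhesion ligand, was at 66.1, 200 and 40.6 CPM, with a 6 h ratio of 1.59 [0.76, 2.48]. Socs3, the feedback inhibitor of JAK-STAT signaling, was at 169, 385 and 81.1 CPM, with a ratio of 1.19 at 6 h, and its ratio in endothelial barcodes was 0.59.

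Some of the largest 6 h ratios rested on 1 barcode. By the naming rule the genes most above the control in alveolar-led fibroblasts included Saa3 (at least 5.26), Iigp1 (2.76), Tnfaip6 (2.56), Ccn5, the matrix glycoprotein gene Tnc (2.18), Sod2, Polr2a (1.99), the stress-secreted factor gene Manf (1.97) and the stress transcription factor gene Atf3 (1.82). All Saa3 UMIs at 6 h came from 1 of the 15 barcodes, and 0 of 22 control barcodes held any. For Iigp1, an interferon-induced GTPase gene, 1 barcode gave 83.5% of the UMIs, and without the top barcodes the ratio was 0.81. Tnfaip6, a hyaluronan-binding protein gene induced by TNF, had a UMI in 10 of 22, 10 of 15 and 1 of 11 barcodes. Its ratio was 2.24 [1.19, 3.43] without the top barcodes. Il6 was seen in 0 of 22, 2 of 15 and 0 of 11 barcodes, with 90.6% of its 6 h UMIs in 1 of them.

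Chaperone genes were also higher at 6 h, here and elsewhere. The whole list summed to 3303 and 5870 CPM in control and 6 h alveolar-led fibroblasts, 3369 and 6651 CPM in endothelial barcodes, and 3477 and 7357 CPM in empty droplets (barcodes with at most 100 UMIs, which hold free RNA). Hspa8, the constitutive cytosolic chaperone, was at 342 CPM in the control, 1071 CPM at 6 h and 307 CPM at 30 h in alveolar-led fibroblasts. Its ratio of 1.65 [1.29, 2.01] stood beside 1.08 in endothelial barcodes and 1.12 in empty droplets. Hspa5, the chaperone of the endoplasmic reticulum, was at 360, 910 and 562 CPM (1.34 [0.98, 1.71]), with a UMI in 22 of 22, 15 of 15 and 10 of 11 barcodes, and its endothelial ratio was 0.74. Manf was at 88.2, 346 and 69.5 CPM (1.97), with 0.34 in endothelial barcodes. Atf3 was at 158, 560 and 116 CPM (1.82 [1.31, 2.37]), and its ratio in endothelial barcodes was 1.55 and in empty droplets 1.63. All 30 h UMIs of Atf3 in alveolar-led fibroblasts came from 1 of the 11 barcodes. How much of these differences came from free RNA was not tested gene by gene.

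The metallothionein genes Mt1 and Mt2, which encode small metal-binding proteins induced by zinc, glucocorticoid and inflammation, differed widely between the libraries. Mt1 had 409 UMIs in the 22 control alveolar-led fibroblasts, 770 in the 15 at 6 h and 0 in the 11 at 30 h. It was seen in 8, 10 and 0 barcodes, and 1 barcode held 68.5% of the control UMIs and 65.5% of those at 6 h. The log2 ratio was 1.32 [1.14, 1.49] at 6 h, and at 30 h the count of 0 sets it at -6.43 or lower against a floor of 3 counts. In alveolar-led mixed barcodes Mt1 was at 219, 1958 and 108 CPM, with a UMI in 25 of 65, 29 of 45 and 10 of 46 barcodes, and ratios of 3.16 and -1.02. Endothelial barcodes had 15.2, 39.6 and 7.53 CPM and empty droplets 99.1, 251 and 36.8 CPM of Mt1, so the order of the libraries was the same in all of these populations. Mt2 had 63, 161 and 0 UMIs in alveolar-led fibroblasts, with 87.3% of the control UMIs in 1 barcode, and was at 53.1, 488 and 17.7 CPM in mixed ones.

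The Mt1 and Mt2 promoters (RefSeq, GRCm38.p6, plus strand, chr8:94178839-94179138 and chr8:94172368-94172667) are shown because these neighboring genes had the same order over the libraries. Capitals mark matches to the core of the metal response element, searched as TGCACNC and TGCGCNC on both strands. At least 1 such match lies in 25.7% of the 32851 promoters and 3 or more in 1.97%, and the Mt1 promoter has 3 and the Mt2 promoter 4.
Mt1 promoter: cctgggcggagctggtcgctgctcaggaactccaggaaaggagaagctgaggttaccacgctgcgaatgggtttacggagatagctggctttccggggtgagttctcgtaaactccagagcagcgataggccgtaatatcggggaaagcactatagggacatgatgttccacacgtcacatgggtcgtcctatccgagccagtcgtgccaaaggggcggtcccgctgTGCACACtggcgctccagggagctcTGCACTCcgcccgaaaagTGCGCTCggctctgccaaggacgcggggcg
Mt2 promoter: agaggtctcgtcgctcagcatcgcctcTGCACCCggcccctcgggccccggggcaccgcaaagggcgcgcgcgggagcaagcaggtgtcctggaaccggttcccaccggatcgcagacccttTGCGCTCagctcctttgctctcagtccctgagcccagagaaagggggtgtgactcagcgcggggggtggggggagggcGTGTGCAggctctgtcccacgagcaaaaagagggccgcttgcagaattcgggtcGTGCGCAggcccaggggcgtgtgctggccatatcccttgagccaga

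Of the genes lower at 6 h in alveolar-led fibroblasts, some such as Adap2 stood near their control level at 30 h. Others such as Slc16a10, Errfi1 and Ccn2 were still lower. The 10 lowest ratios by the naming rule were those of Kalrn (-3.87), Scgb1a1 (-2.97), Lrmda (-2.83), Errfi1 (-2.74), Adap2 (-2.66), Wwox (-2.65), A230057D06Rik (-2.59), Dpyd (-2.47), Slc16a10 (-2.35) and Gria1 (-2.12). Adap2 (chromosome 11, 80154105 to 80178958), which encodes an Arf GTPase-activating protein, was at 154 CPM [111, 209] in the control, 24.3 CPM [7.90, 56.8] at 6 h and 168 CPM at 30 h, and had a UMI in 13 of 22, 3 of 15 and 7 of 11 barcodes. Adap2 in alveolar-led mixed barcodes was at 89.1, 29.5 and 54.9 CPM, a 6 h ratio of -1.60 [-2.13, -1.09], and in endothelial barcodes the ratio was -0.20. Slc16a10, an amino acid transporter gene, was at 198, 38.9 and 69.5 CPM, and at 95, 41.3 and 25.7 CPM in mixed barcodes. Zbtb16, a glucocorticoid-induced transcription factor gene, was at 254, 87.6 and 481 CPM with a 6 h ratio of -1.53, and its endothelial ratio was -1.11. For Errfi1, a feedback inhibitor of EGF receptor signaling, the levels were 650, 97.3 and 156 CPM, but the mixed barcodes had a ratio of only -0.54 and the members with Pecam1 plus Cdh5 of 2 to 4 one of 0.20. Scgb1a1, the club cell secretoglobin, also had an endothelial ratio of -2.60, so its lower level was not particular to the fibroblasts. Ccn2, a matricellular relative of Ccn5, was lower where Ccn5 was higher, at 695, 316 and 324 CPM in alveolar-led fibroblasts and at 443, 75.9 and 164 CPM in alveolar-led mixed barcodes.

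**Figure D4:**
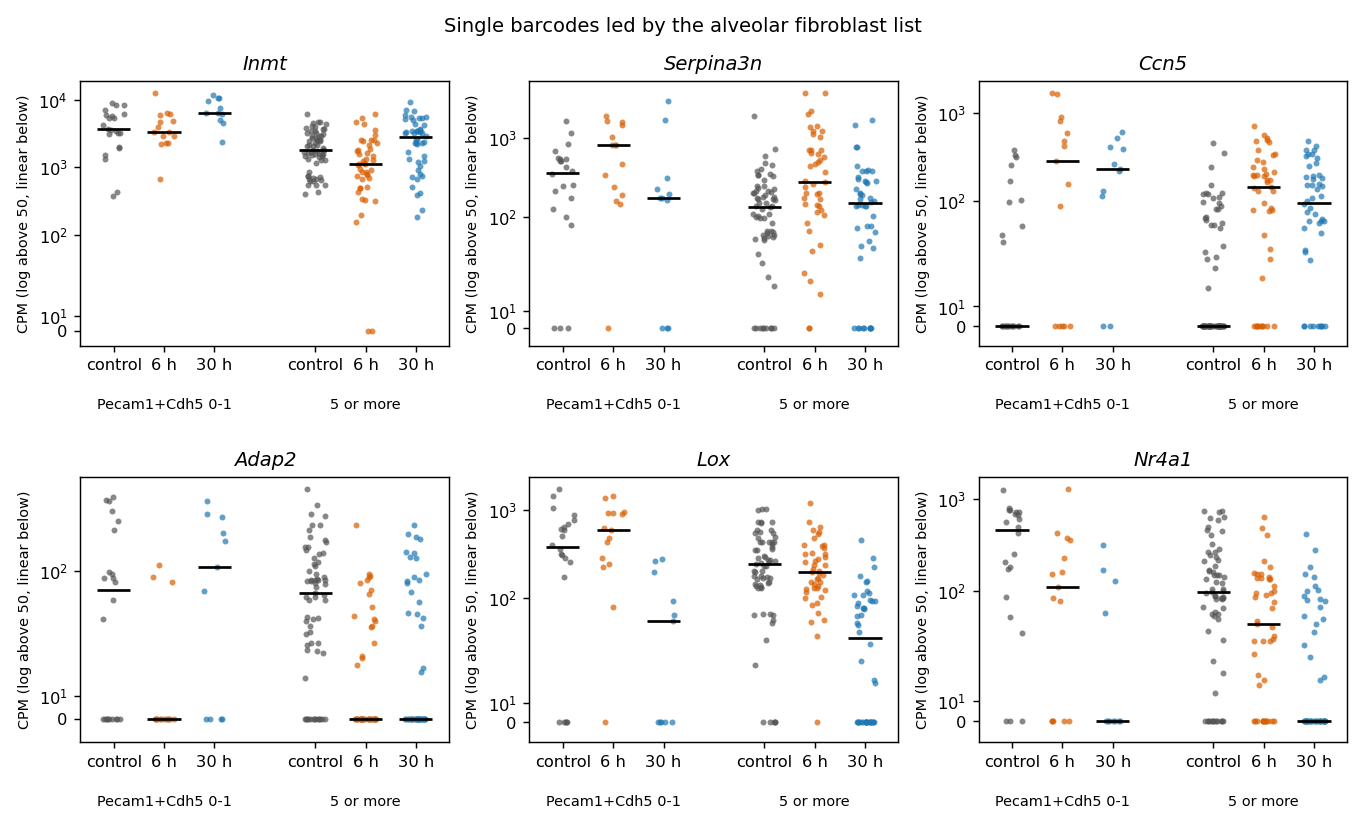
Each point is 1 alveolar-led barcode and gives its CPM (linear near 0, then log scale) of Inmt, Serpina3n, Ccn5, Adap2, Lox or Nr4a1 by library, for fibroblasts and for mixed barcodes, with a line at the median. Medians of Ccn5 were 0, 286 and 230 CPM in the fibroblasts and 0, 146 and 96.2 CPM in the mixed barcodes, and Lox had its lowest median at 30 h in both.

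At 30 h the alveolar-led fibroblasts had less RNA of immediate early genes and of several cytokine receptor and JAK-STAT genes, and of Lox. Genes of the alveolar list, which chose these barcodes, are given as a description. The median percent of mitochondrial UMIs in the alveolar-led fibroblasts was 1.52, 2.28 and 2.92 (2.37, 2.33 and 2.72 in endothelial barcodes) and their median total 11671.5, 12648 and 17383 UMIs, and the part of these in the results was not tested. Of the 2158 genes, 92 (4.26%) were at least 2-fold higher and 267 (12.4%) at least 2-fold lower, with a median of -0.10. In all fibroblasts 179 of 3772 genes (4.75%) were at least 2-fold higher and 427 (11.3%) at least 2-fold lower than in the control, so 29.5% of the genes past 2-fold were higher. Scaling with median-of-ratios size factors moved the median over all genes from -0.15 to -0.00 and that share to 44.0% (240 higher, 306 lower). The values that follow are from CPM, and a ratio read against the other genes is higher by that shift. Compared with 6 h, 197 genes (5.22%) were at least 2-fold higher at 30 h and 345 (9.15%) at least 2-fold lower in all fibroblasts.

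Inmt (chromosome 6, 55170626 to 55175043) was at 4141 CPM [3903, 4390] in the control, 4293 CPM [4014, 4586] at 6 h and 7162 CPM [6768, 7573] at 30 h in alveolar-led fibroblasts, and every barcode held it. By barcode it ran from 378 to 8979 CPM with a median of 3639 CPM in the control, from 675 to 12600 CPM with a median of 3321 CPM at 6 h, and from 2352 to 11908 CPM with a median of 6382 CPM at 30 h. The barcodes overlapped, and the 30 h median was the highest. The log2 ratio was 0.05 [-0.08, 0.18] at 6 h and 0.79 [0.67, 0.91] at 30 h, and it was 0.60 at 30 h in alveolar-led mixed barcodes. Free Inmt RNA was also higher at 30 h, with a ratio of 1.03 in empty droplets and in endothelial barcodes, and over all fibroblasts the ratio was -0.01 without members that held 5 or more pericyte and smooth muscle UMIs. Mfap4 (chromosome 11, 61485431 to 61488900) was at 1440 CPM [1301, 1590], 1144 CPM [1002, 1300] and 2150 CPM [1937, 2380], with ratios of -0.33 and 0.58 [0.37, 0.79]. Over all fibroblasts the 30 h ratio of Mfap4 turned to -0.24 in those with no Pecam1 or Cdh5 UMI and to -0.37 in those with at most 5000 genes. Npnt was at 2054, 1781 and 3228 CPM (0.65 at 30 h), and its endothelial ratio was 0.00. Tcf21, a transcription factor gene of this lineage, was at 474, 365 and 898 CPM (0.92), with 0.75 in endothelial barcodes. Over the whole alveolar list the median at 30 h was 0.39 [-0.13, 0.92], with 1 of 12 genes past 2-fold, the amino acid transporter Slc7a10 (69.8, 97.3 and 174 CPM). Over all genes tested 4.26% were at least 2-fold higher, so this count of 1 gene lies near the background. Pcolce, an enhancer of procollagen processing, was at 184, 355 and 435 CPM and had a UMI in 15 of 22, 15 of 15 and 11 of 11 barcodes.

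Among matrix genes, Lox was at least 2-fold lower at 30 h. Lox, the enzyme that crosslinks collagen and elastin, was at 584 CPM [497, 682] in the control, 623 CPM [520, 741] at 6 h and 98.5 CPM [57.4, 158] at 30 h in alveolar-led fibroblasts. It had a UMI in 17 of 22 control barcodes (median 376 CPM), 14 of 15 at 6 h (median 586 CPM) and 6 of 11 at 30 h (median 54.7 CPM). The barcodes of the libraries overlapped, and the 30 h median lay below both others. The 30 h log2 ratio was -2.57 [-3.38, -1.84], and -2.69 without the top barcodes. In alveolar-led mixed barcodes Lox was at 286, 259 and 67.3 CPM (-2.09 [-2.45, -1.74]), with a UMI in 60 of 65, 44 of 45 and 27 of 46. Endothelial barcodes had 1.79, 1.52 and 0.625 CPM (-1.51), and empty droplets a ratio of -1.44. With 4000 UMIs per barcode, the share of alveolar-led fibroblasts with Lox was 71.4%, 80.0% and 40.0%, and of endothelial barcodes 1.1%, 0.7% and 0.3%.

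Eln, which encodes elastin, was at 1360, 818 and 701 CPM in alveolar-led fibroblasts, with ratios of -0.73 [-1.01, -0.47] and -0.96 [-1.26, -0.66]. Eln in alveolar-led mixed barcodes was at 746, 379 and 251 CPM (-0.98 and -1.57). The elastic fibre list as a whole did not share this, with a 30 h median of 0.09 and only Lox of 11 genes past 2-fold. The collagen list had a 30 h median of 0.11, with 2 of 11 genes, the basement membrane chains Col4a1 and Col4a2, at least 2-fold lower. Col4a1 was at 922, 823 and 394 CPM (-1.23), and its endothelial ratio was 0.21. The rule genes Col1a1 (643, 779 and 962 CPM), Col1a2 (1047, 983 and 1281 CPM) and Col3a1 (1558, 1426 and 1176 CPM) stayed within 2-fold, whereas Dcn was at 180, 360 and 5.79 CPM, with a UMI in 6 of 22, 3 of 15 and 1 of 11 barcodes. Of the matrix glycoprotein list, Lama2, Thbs1, Ccn1 and Ccn2 were at least 2-fold lower and Tnc higher at 30 h, out of 19 genes with a median of -0.21. Over all genes tested 12.4% were at least 2-fold lower, so the counts of the elastic fibre and collagen lists lie near the background. Most of the 30 h UMIs of Tnc came from 1 barcode.

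The immediate early genes, which warm tissue digestion is also known to induce, were lower at 30 h than in the control. Of 14 tested in alveolar-led fibroblasts, 10 were at least 2-fold lower and none higher (median -1.53 [-2.63, -0.79]), beside 12.4% of all genes tested. Nr4a1 (chromosome 15, 101254269 to 101274795), an orphan nuclear receptor gene of this class, was at 437 CPM [362, 523], 224 CPM [164, 299] and 63.7 CPM [31.8, 114], with a UMI in 19 of 22, 10 of 15 and 4 of 11 barcodes. Its 30 h ratio was -2.78 [-3.82, -1.89] and, in alveolar-led mixed barcodes, -1.72. In endothelial barcodes Nr4a1 went the other way, at 13.4, 21.6 and 22.3 CPM (0.74 at 30 h). Fos, a subunit of the AP-1 factor, was at 2929, 3899 and 1130 CPM (-1.37), with -0.79 in endothelial barcodes, and Egr1 at 1022, 1557 and 307 CPM (-1.73), with -0.63 there. The summed immediate early list was at 14482, 16972 and 5812 CPM in alveolar-led fibroblasts and at 10988, 14366 and 8677 CPM in endothelial barcodes. The part of digestion or handling in these levels was not tested.

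Several genes of the list of cytokine receptors and JAK-STAT signaling were lower at 30 h as well. Of 15 tested, 8 were at least 2-fold lower, beside 12.4% of all genes tested, and none higher: the receptors Il6ra, Osmr, Il1r1 and Ifngr1, the transcription factor Stat3, and the targets Socs3, Pim1 and Junb, of which Il1r1 signals through NF-kB and not through JAK-STAT, and Junb is also on the immediate early list. The median was -1.06 [-1.69, -0.51]. Stat3 was at 500, 594 and 98.5 CPM in alveolar-led fibroblasts, with per-barcode medians of 230, 506 and 88.8 CPM and UMIs in 19 of 22, 15 of 15 and 9 of 11 barcodes. Its log2 ratio was 0.25 [-0.12, 0.61] at 6 h and -2.34 [-3.16, -1.61] at 30 h. In alveolar-led mixed barcodes Stat3 was at 300, 484 and 166 CPM and in endothelial barcodes at 230, 318 and 151 CPM, the same order, with the 30 h level less far below the control than in alveolar-led fibroblasts. Pim1, a kinase gene downstream of STAT3, was at 180, 277 and 23.2 CPM (-2.96), and Il6ra, the IL-6 receptor, at 283, 234 and 110 CPM (-1.36). Osmr, the oncostatin M receptor, was at 191, 248 and 86.9 CPM, and Il1r1, the IL-1 receptor, at 198, 311 and 57.9 CPM (-1.78), while the latter's ratio was 0.28 in mixed and 0.20 in endothelial barcodes.

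Of the genes highest at 30 h in alveolar-led fibroblasts, some were also higher in endothelial barcodes and some were not. By the naming rule these were Cmss1 (3.39), Nav2 (2.92), Kcnb2 (2.86), Tnc (2.76), Lars2 (2.64), Nrcam (2.59), Negr1 (2.56), Cdk8 (2.43), Saa3 (at least 2.24) and Camk1d (2.23). Cmss1 was at 235, 691 and 2463 CPM in them, and at 463, 649 and 2652 CPM in endothelial barcodes, with a 30 h ratio of 2.68 in empty droplets. Cdk8, Lars2 and Camk1d had endothelial ratios of 2.43, 2.03 and 1.68. Negr1, a neuronal growth regulator, was at 58.8, 170 and 348 CPM with an endothelial ratio of -0.09, and its ratio in mixed barcodes was 1.91. Without the top barcodes its ratio in alveolar-led fibroblasts was 2.22 at 30 h but 0.13 at 6 h. Computed likewise, the 30 h ratio was 1.03 [-1.18, 3.37] for Tnc and 4.84 [2.87, 7.94] for Kcnb2, and no 30 h UMI of Saa3 was left. The Kcnb2 value came from 34 against 2 control UMIs. In all fibroblasts with no Pecam1 or Cdh5 UMI the 30 h ratio of Kcnb2 was -0.016. Nav2 was at 51.4, 77.9 and 388 CPM, with 1.62 in mixed and -0.41 in endothelial barcodes. The lowest ratios were those of Mt1 (-6.43 or lower) and Mt2 (-3.74 or lower), both at 0 UMIs, and of Dcn (-4.96), Nr4a3 (-4.93), Chrna7 (-4.55), Mid1 (-4.42), 1200007C13Rik (-4.22), Gm26802 (-4.18), Fmnl2 (-3.63) and Scgb1a1 (-3.46). Without the top barcode of each library the ratio was -0.73 or lower for Mt2 and -2.45 or lower for Dcn. Nr4a3 was also lower in mixed barcodes (-3.15), whereas Chrna7 (-0.20), Mid1 (0.32) and Fmnl2 (-0.30) were within 2-fold there. Without the top barcodes the mixed ratio of Chrna7 was -1.29 [-3.76, 0.60], from 3 against 12 UMIs.

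Over all fibroblasts at 30 h, most adventitial list genes were higher. Of 13 genes tested from the full adventitial list of 18, 9 were at least 2-fold higher, beside 4.75% of all genes, and none lower (median 1.31 [0.57, 2.08], against -0.15 over all genes). Dcn is 1 of the 9 and was used to choose the members, so it counts for nothing here, and the others were Pi16, Ly6a, Ly6c1, Clec3b, Col14a1, Igfbp4, Il33 and Efemp1. Of these, Ly6a, Ly6c1 and Igfbp4 were above 50 CPM in endothelial barcodes and so were not used to assign the members. Genes of 1 list can differ together through the same few barcodes, so they are not separate results. Pi16, a marker of adventitial fibroblasts, was at 81.1, 77.0 and 355 CPM but came from 3 of 38, 1 of 28 and 4 of 24 barcodes, with 84.7% of the 30 h UMIs in 1 of them. Clec3b, which encodes the plasminogen-binding protein tetranectin, was at 413, 441 and 1073 CPM (1.38), and Col14a1, a fibril-associated collagen, at 54.9, 59.2 and 232 CPM (2.08). In alveolar-led fibroblasts the same list had a median of 0.12 and 1 of 7 tested genes past 2-fold, the lower Dcn, again a gene of the rule. Over all genes tested there, 12.4% were at least 2-fold lower and 4.26% higher, so this count lies near the background. Adventitial markers led 3, 2 and 4 of all fibroblasts and mesothelium markers 0, 0 and 1. The mesothelium list, too, was highest at 30 h, at 174, 115 and 686 CPM over all fibroblasts. The 10 highest ratios by the naming rule over all fibroblasts were those of Lyz1 (9.12), Slc34a2 (7.71), Sftpa1 (7.38), Sftpb (6.98), Lyz2 (6.92), Cxcl15 (at least 6.92), Sftpc (6.91), Wfdc2 (6.67), Fabp5 (5.95) and Scd1 (5.70), all expressed by alveolar type II cells, and 99.8% of the Lyz1 UMIs came from the epithelium-carrying barcode. The lowest were those of Spp1 (-7.16), Gm26802 (-4.32), Nr4a3 (-3.83), the hemoglobin gene Hba-a1 (-3.74), Pcdh7 (-3.66), Chrna7 (-3.63), Mt1 (-3.47), the aggrecanase gene Adamts4 (-3.44), 1200007C13Rik (-3.41) and Hhip (-3.36). With free RNA taken off, the ratio of Hba-a1 turned to 0.24. For Pcdh7 the mixed barcodes had a ratio of 1.99, in the opposite direction.

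The 325 mixed barcodes held RNA of the rule genes and of endothelium side by side. Pericyte markers led in 135 of them and smooth muscle markers in 10, so not all of them paired fibroblast with endothelial RNA. In the 90 fibroblasts, the reference for the fibroblast markers below, these lists led in 18 and 7. More than 5000 genes were detected in 113 of 139, 75 of 90 and 72 of 96 of them, and in 5 fibroblasts of each library. Fibroblast markers outside the rule stood at a median of 35.8% [22.1, 43.1], 34.3% [22, 40.3] and 43.5% [26.7, 49.6] of their CPM in the fibroblasts. Pan-endothelial genes outside the split stood at a median of 56.7%, 57.6% and 52.1% of their CPM in endothelial barcodes. The number of barcodes marked by Scrublet score was preset, at 10.3%, 9.67% and 8.45% of the control, 6 h and 30 h libraries. Of the mixed barcodes, 27.3%, 31.1% and 4.17% were among those marked. The endothelial shares (10.8%, 10.3% and 9.11%) follow largely from the preset, since endothelial barcodes were most of each library. They are not measured doublet rates. The marker levels were measured on whole barcodes, and whether a mixed barcode was a pair of attached cells or a chance pair in 1 droplet was not tested.

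**Figure D5:**
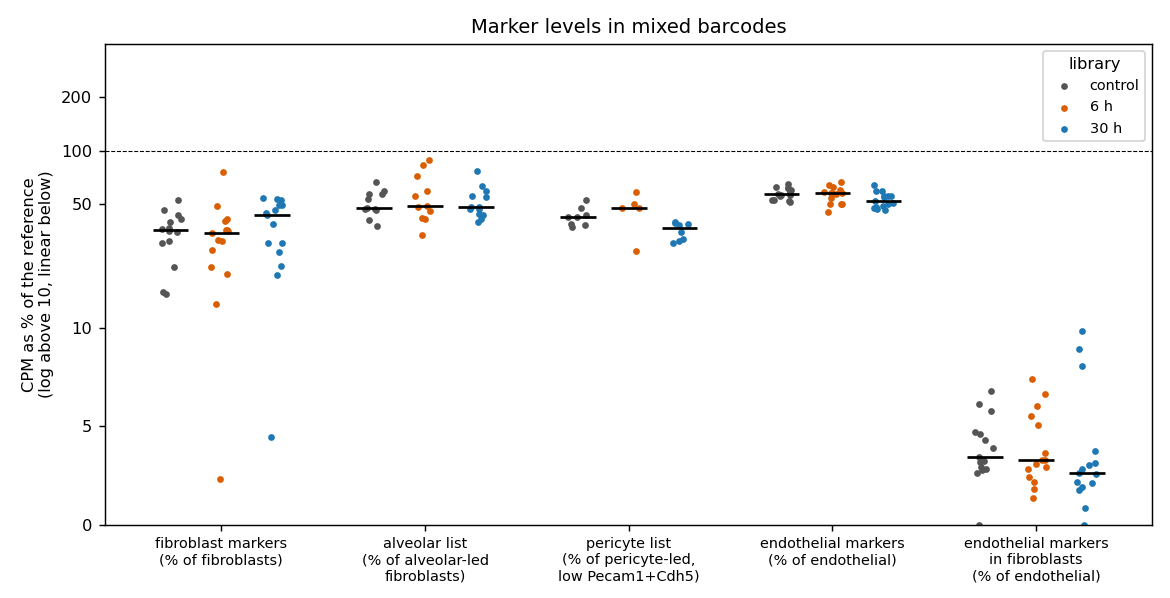
Each point is 1 marker gene and gives its CPM as a percent of its CPM in a reference, by library, with a line at the median. Fibroblast markers are set against fibroblasts, and endothelial markers against endothelial barcodes. The alveolar and pericyte lists, in mixed barcodes that they led, are set against fibroblasts that they led. All groups show mixed barcodes except the last, which shows endothelial markers in fibroblasts. In mixed barcodes the medians were 35.8%, 34.3% and 43.5% for fibroblast markers and 56.7%, 57.6% and 52.1% for pan-endothelial markers.

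Within the mixed barcodes, alveolar markers led in 70 of 139, 52 of 90 and 50 of 96, and pericyte markers in 68, 34 and 33. Alveolar list genes in the alveolar-led ones were at a median of 47.2%, 48.8% and 47.8% of their CPM in alveolar-led fibroblasts, and pericyte list genes in the pericyte-led ones at 42.3%, 47.5% and 36.5% of their CPM in pericyte-led fibroblasts. Among the endothelial subtypes, general capillary markers were at a median of 58.2%, 61.0% and 54.6% of their level in endothelial barcodes, close to the pan-endothelial genes. Vein markers were at 58.7%, 75.7% and 134.9%, and artery markers at 73.0%, 99.4% and 70.4%, with wide ranges over genes. Single genes reached 752%, 813% and 686% on the vein list and 2924%, 3501% and 5266% on the artery list. Whether the vein list RNA came from endothelium or from the other cells in these barcodes was not tested. Aerocyte markers were at 63.3%, 42.8% and 52.7%, and lymphatic markers at 43.6%, 41.4% and 13.3%. The vein median was 40.8%, 63.8% and 68.1% in alveolar-led mixed barcodes but 83.6%, 96.5% and 161% in pericyte-led ones. The artery list includes Mgp, which alveolar-led fibroblasts held at 16974 CPM, and its median in alveolar-led mixed barcodes was 66.5%, 63.9% and 52.7%. Dcn in all mixed barcodes was at 3.25, 135 and 247 CPM, and adventitial markers led in 0, 2 and 3 of them. Smooth muscle markers led in 1, 1 and 8 mixed barcodes, and the genes that stood highest in these 10 included the complement genes C1qa (365 CPM) and C1qb (435 CPM) of macrophages beside Acta2 (2311 CPM). These levels are sums over the 10 barcodes, and how many of them held the complement genes is not given here.

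Pericyte-led members were the second largest group, and the pericyte genes given first belong to the list that assigned them, so their levels are a description. In pericyte-led mixed barcodes (without epithelium-carrying ones, 65, 31 and 32), Pdgfrb was at 423, 417 and 451 CPM and Notch3 at 469, 350 and 423 CPM. Cox4i2, a hypoxia-tuned cytochrome oxidase subunit gene of pericytes, was at 979, 954 and 967 CPM and Gucy1a1 at 1867, 1533 and 1581 CPM, all within 2-fold. Spp1 (chromosome 5, 104435118 to 104441050) was at 1613, 1187 and 672 CPM in them, with ratios of -0.44 [-0.55, -0.33] and -1.26 [-1.39, -1.14]. In pericyte-led fibroblasts (8, 4 and 6 barcodes) Spp1 had 344, 125 and 2 UMIs, but over all fibroblasts it was seen in only 5 of 38, 3 of 28 and 1 of 24 barcodes, with 69.2% of the control and 98.4% of the 6 h UMIs in 1 barcode each. Its endothelial ratio at 30 h was -0.93 and that in empty droplets -1.19. Angptl4, a secreted lipase inhibitor that also acts on vessels, was at 263, 118 and 90.2 CPM in pericyte-led mixed barcodes, and at 456, 214 and 127 CPM in alveolar-led fibroblasts, lower at both times in each. Its endothelial ratios were -0.78 and -1.15. Hspa8 in pericyte-led mixed barcodes had a 6 h ratio of 1.27, and Vegfa one of 0.65 (148, 232 and 180 CPM).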

How the data were processed

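UMI counts of 3 droplet libraries, 1 per group, were analysed. The authors deposited unfiltered UMI counts per gene and barcode, made per the submitters' processing notes with Cell Ranger 7.2.0 (the methods name an older version) on mm10, and Seurat 4.4.0 is also named there. Whether intronic reads were counted is not given in the sources used here, and if they were, long genes gain UMIs. Matrices list 32285 genes, of which 32158 (99.6%) had positions in GENCODE M21.

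For each class of barcodes in each library, counts were added up and expressed as CPM with numpy 2.4.6, scipy 1.17.1 and pandas 2.3.3. Sums carry exact Poisson, shares Clopper-Pearson and ratios conditional binomial intervals (95%), which cover counting error only and, since no group has a replicate, are not tests. A sum of 0 was set to 3 counts to bound a ratio. Doublets were scored with Scrublet in scanpy 1.11.5. The highest-scoring barcodes of each library were marked, up to a number preset at 0.8% per 1000 barcodes. The ratio step was tested on simulated data.

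The members, the 41 gene lists and the leading-list rule were chosen with earlier results of these data known. Genes were named by rule: the 10 highest and 10 lowest log2 ratios at 6 h and 30 h among genes with at least 60 UMIs, without mitochondrial genes, repeated in alveolar-led fibroblasts, and for each list its most counted genes and members past 2-fold. Other genes named were chosen after their values were seen. Alternatives changed the rule minimum, the split, the gene limits, doublets, scaling, free RNA and the gene minimum, and 3 more were added after the data had been seen. A few genes that the rule or lists name are not reported here.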

Additional observations from a re-analysis of the deposited data

Results flagged for a closer look

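In empty droplets, which no comparison of the report used as its subject, the 4 rule genes in sum were higher at 30 h than in the control, at 147 against 91.8 CPM, a log2 ratio of 0.68 [0.49, 0.87]. This level of free collagen and Dcn RNA lay above that of the control library.

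The members with Pecam1 plus Cdh5 of 2 to 4 were in neither class compared. Led by alveolar markers (5 control and 8 at 6 h barcodes), they held more RNA of 3 genes at 6 h than in the control. Ccn5 was at 274 against 27.1 CPM (log2 ratio 3.34 [1.38, 6.44], from 36 and 2 UMIs), Atf3 at 289 against 67.7 CPM (2.09 [0.74, 3.80], from 38 and 5 UMIs), and Tnfaip6 at 137 CPM against 0 (at least 1.75, from 18 and 0 UMIs). Each was also higher at 6 h in the alveolar-led fibroblasts and mixed barcodes of the same libraries, so these are not independent samples.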

How the results depend on the processing

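No paired analysis was possible because each group had 1 library. Of 567 main values under the alternatives, 499 moved by less than their interval or 1.5 times, 67 moved by more and 1 reversed, and of 1170 values of single genes 900, 231 and 39 did so. Depth limits most genes, and 1 library per group limits all comparisons. The cause of the shifts was not tested except where a setting keeps fewer barcodes or genes by construction.

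The following are log2 ratios to control over all fibroblasts unless another quantity is named. Alveolar-led members, in which most single genes above are described, entered as 1 of the alternatives. With Pecam1 and Cdh5 of 0, those at 6 h were 1.12 for Clstn2, -0.34 for Negr1, -1.16 for Sftpc and -0.26 for Thbs1, and at 30 h -0.016 for Kcnb2 and -0.24 for Mfap4. The immediate early list was then at 0.19 and -2.06, the genes past 2-fold at 6 h numbered 201, and fibroblast shares were 0.163%, 0.124% and 0.123%. With 0 to 4 they were -0.064 for Col1a2, -1.27 for Dcn and 0.16 for Gria1 at 6 h, with shares of 0.443%, 0.356% and 0.350%. In alveolar-led members only, those at 6 h were -0.43 for Ccn1, -0.091 for Col1a2, -0.0096 for Lyz2, -1.18 for Sftpc, -0.67 for Thbs1 and 0.22 for the immediate early list, and those at 30 h -0.41 for Col3a1, -4.96 for Dcn, -0.34 for Lyz2 and -3.10 for Sftpc. There 200 genes were past 2-fold at 6 h, 359 at 30 h and 340 between 30 h and 6 h, and shares were 0.171%, 0.124% and 0.104%.

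With at most 5000 genes, those at 6 h were -0.16 for Negr1, -0.68 for Sftpa1 and -0.58 for Sftpc, and those at 30 h -0.59 for Lyz2, -0.37 for Mfap4, -0.91 for Sftpa1, -1.81 for Sftpc and 0.47 for the protease list. The counts past 2-fold were 191, 334 and 332, endothelial markers in mixed barcodes stood at 46.7%, 44.6% and 46.45%, and mixed shares were 0.226%, 0.137% and 0.252%. With at least 300 genes mixed shares were 0.889%, 0.598% and 0.736%. With doublets left out, Sftpa1 was at -0.20 and Sftpc at -0.49 at 6 h, with mixed shares of 0.875% in the control and 0.568% at 6 h. Without members of 100 or more epithelium UMIs, those at 6 h were -0.20 for Sftpa1 and -0.49 for Sftpc, and at 30 h -0.19 for Lyz2, -0.92 for Sftpa1 and -1.51 for Sftpc. With free RNA taken off, Hba-a1 was at 0.24 at 30 h.

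A gene minimum of 1 UMI gave 4710, 5075 and 5029 genes past 2-fold at 6 h, 30 h and between them, and 30 UMIs gave 799, 1157 and 1124. With 16 or more rule UMIs the elastic fibre list was at -0.20 at 6 h, endothelial and fibroblast markers in mixed barcodes at 45.7% and 51.3% at 30 h, the fibroblast share at 6 h was 0.149%, and mixed shares were 0.684%, 0.397% and 0.615%. With 4 or more, endothelial markers stood at 60.7% and 58.2% at 6 h and 30 h, and mixed shares were 1.29%, 0.952% and 1.17%.

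Without members with 5 or more pericyte and smooth muscle UMIs, which leaves few barcodes, those at 6 h were -0.22 for Dcn, -2.29 for Negr1, -0.60 for the complement, 0.36 for the collagen, -0.33 for the protease and -0.79 for the immediate early list (reversed). At 30 h they were 0.74 for Atf3, -0.014 for Inmt, 0.41 for Mt2, -1.14 for Sftpc, -0.72 for matrix glycoproteins and 1.01 for proteases. The counts past 2-fold were 200, 287 and 259. Alveolar UMIs led adventitial ones in 50.0% at 30 h. Endothelial markers stood at 70.7% at 30 h and fibroblast markers at 54.5% and 74.8% in the control and 6 h libraries. Fibroblast shares were 0.0777%, 0.0579% and 0.0568%, and mixed shares 0.101%, 0.0911% and 0.104%.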
